A study of Mus musculus with 12 samples.

Results

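The MAP kinase phosphatases are dual-specificity phosphatases, enzymes that remove phosphate from both the threonine and the tyrosine of an activated MAP kinase. The set described here comprised 10 genes, Dusp1, Dusp2, Dusp4, Dusp5, Dusp6, Dusp7, Dusp8, Dusp10, Dusp14 and Dusp16, taken by their symbols from the 43453 genes of a table of read counts. Where a gene had several transcripts in the table, the transcript with the highest total count stood for it. All 10 genes were present in the table. Of these, 9 passed the filter on low counts in 3 of the 4 pairwise comparisons, and all 10 passed in the comparison of the groups headed LPS-. Dusp14 was the gene that did not pass elsewhere.

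The table held poly(A) RNA-seq of bone marrow-derived macrophages (BMDMs) of C57BL/6 mice, in 4 groups of 3 libraries. Bone marrow cells had been grown with 50 ng/mL of M-CSF for 7 days, and the groups headed LPS+ had then received 1 µg/mL of LPS, the bacterial ligand of TLR4, for 6 h. All mice carried loxP-flanked tlr4 (tlr4f/f). The mice of the groups headed tlr4f/f-lysM-cre also carried Cre driven by the promoter of lysozyme M, the gene Lyz2, which is active in macrophages and neutrophils, so tlr4 is deleted only in cells that express it. The age of the mice used for BMDMs and the number of mice behind a group were not given in the sources used here, so p-values measure the spread between libraries, which may be technical. The libraries held between 33577440 and 56445989 counts on the chosen transcripts.

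MAP kinases of the ERK, JNK and p38 classes carry signals from TLR4 and other receptors to transcription factors and to proteins that control mRNA stability. The phosphatases end these signals. Some of them are encoded by genes that the same kinases switch on, which makes a feedback loop. Dusp1, Dusp2, Dusp4 and Dusp5 encode inducible nuclear enzymes, Dusp6 and Dusp7 encode cytoplasmic enzymes that act on ERK, and Dusp8, Dusp10 and Dusp16 encode enzymes that act mainly on JNK and p38. Dusp14 encodes a small enzyme without the N-terminal domain by which the others bind MAP kinases. In macrophages Dusp1 (MKP-1) is best known, as a brake on p38 and JNK and so on the production of inflammatory cytokines.

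The headings of 2 of the groups may be exchanged, so every comparison was read in both ways. Tlr4, the targeted gene, had 77.0, 145.6 and 120.9 CPM (counts scaled to a common library size by TMM) in the LPS- tlr4f/f libraries. Under the heading LPS- tlr4f/f-lysM-cre its levels were 117.2, 94.7 and 116.3 CPM. Under LPS+ tlr4f/f they ran from 24.5 to 31.2 CPM, and under LPS+ tlr4f/f-lysM-cre from 24.4 to 27.4 CPM. Tlr4 thus separated the groups by the sign of LPS in their heading and not by their genotype. Lyz2, the gene that carries the Cre, separated them in the same way, with 5953 to 23331 CPM in the 6 libraries headed LPS- and 10.4 to 75.3 CPM in the 6 headed LPS+. Il1b, an LPS-induced cytokine gene, ran from 1633 to 8224 CPM under LPS- tlr4f/f-lysM-cre and from 2488 to 2671 CPM under LPS+ tlr4f/f-lysM-cre. The 6 other libraries had 0.075 to 6.95 CPM. Group names below are the headings. "As headed" takes them at their word, and "exchanged" swaps LPS- tlr4f/f-lysM-cre with LPS+ tlr4f/f.

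All 8 macrophage markers were detected in every library. The spread among replicates was wider in the groups headed LPS-, where the biological coefficient of variation was 48.4% for tlr4f/f and 42.8% for tlr4f/f-lysM-cre, than in the LPS+ groups, where it was 8.78% and 9.02%. Stromal markers differed within the LPS- groups. Their summed level over 6 of 6 genes was 669, 61.7 and 9.13 CPM in LPS- tlr4f/f and 981, 188 and 1509 CPM in LPS- tlr4f/f-lysM-cre, against 20.6 to 25.1 CPM in LPS+ tlr4f/f and 44.6 to 56.8 CPM in LPS+ tlr4f/f-lysM-cre. Summed lymphocyte markers stayed at or below 1.31 CPM. The 9 neutrophil markers summed to 27.9, 14.9 and 192 CPM in LPS- tlr4f/f-lysM-cre, 13.7, 11.2 and 0.637 CPM in LPS- tlr4f/f and 4.61 to 7.62 CPM in the LPS+ groups. S100a8 reached 125.3 CPM, S100a9 32.9 CPM and Ngp 21.6 CPM, while Ly6g and Retnlg had at most 1 count in any library. The part of neutrophils in the results was not tested.

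Dusp1, Dusp2 and Dusp16 had their highest levels in LPS- tlr4f/f-lysM-cre. Dusp2 and Dusp16 had their next highest in LPS+ tlr4f/f-lysM-cre and were lower in every library headed tlr4f/f. For Dusp1, LPS+ tlr4f/f-lysM-cre lay above LPS+ tlr4f/f but overlapped LPS- tlr4f/f. With the headings exchanged, the groups named for Dusp2 and Dusp16 are the LPS-treated tlr4f/f macrophages, the LPS-treated tlr4f/f-lysM-cre macrophages and the untreated macrophages of both genotypes. Dusp7 and Dusp10 were lowest in LPS+ tlr4f/f-lysM-cre. Dusp4 kept a similar level in all 4 groups. Separation of groups was looked at for the members only, here and below. The share of all genes with the same separation was not counted, so it is not shown to be particular to the members.

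**Figure D1:**
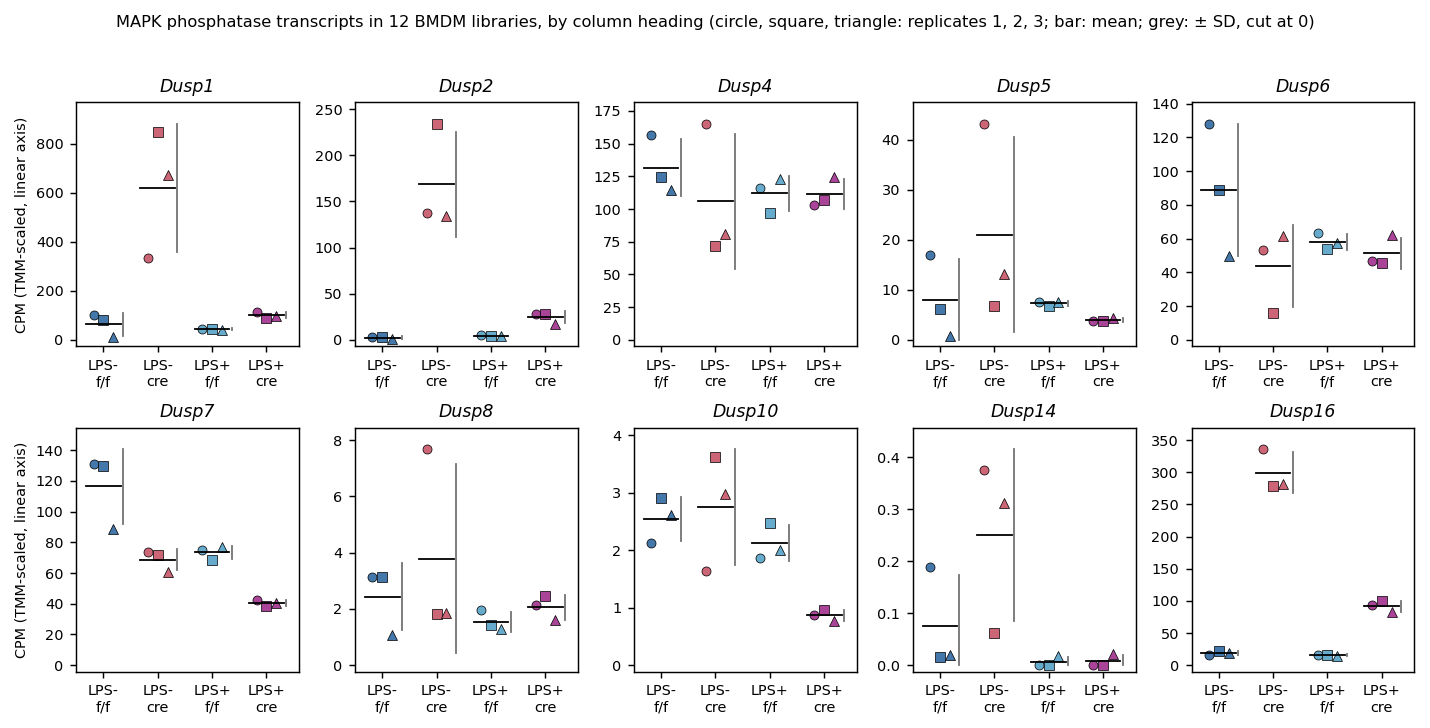
CPM of each of the 10 genes (linear axes from 0, 1 panel a gene) in 12 libraries, grouped by column heading, with circles, squares and triangles for replicates 1, 2 and 3, a bar at the mean and a grey line for ± SD cut at 0. Dusp1, Dusp2 and Dusp16 have all 3 LPS- tlr4f/f-lysM-cre libraries above the other 9, and Dusp10 has all 3 LPS+ tlr4f/f-lysM-cre libraries below the other 9. The share of all genes with such separation was not counted.

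The sequences upstream of the starts of Dusp1, Dusp2 and Dusp16, the genes whose LPS- tlr4f/f-lysM-cre libraries lay above all others, are shown so that they can be compared. Each holds the 250 bases before the RefSeq transcript start (GRCm38.p6, the build of the counts), 5′ to 3′ on the gene's strand. Capitals mark matches of the motifs searched. They are from chr17:26508473-26508722, minus strand (Dusp1), chr2:127335909-127336158, plus strand (Dusp2) and chr6:134792629-134792878, minus strand (Dusp16).
Dusp1: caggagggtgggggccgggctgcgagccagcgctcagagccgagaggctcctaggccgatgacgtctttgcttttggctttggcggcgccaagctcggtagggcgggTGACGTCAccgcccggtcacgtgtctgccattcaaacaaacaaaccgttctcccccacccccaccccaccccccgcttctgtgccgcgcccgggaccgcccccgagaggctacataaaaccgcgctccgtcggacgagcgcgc
Dusp2: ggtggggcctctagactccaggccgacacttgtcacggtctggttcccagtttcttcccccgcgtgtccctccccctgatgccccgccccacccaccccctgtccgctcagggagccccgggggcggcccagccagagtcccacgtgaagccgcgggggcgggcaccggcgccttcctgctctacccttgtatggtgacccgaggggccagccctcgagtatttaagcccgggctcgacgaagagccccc
Dusp16: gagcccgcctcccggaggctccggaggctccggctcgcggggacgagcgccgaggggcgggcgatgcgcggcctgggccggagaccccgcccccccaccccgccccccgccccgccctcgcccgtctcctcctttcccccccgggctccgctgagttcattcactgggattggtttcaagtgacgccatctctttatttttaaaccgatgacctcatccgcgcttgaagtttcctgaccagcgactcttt

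The motifs searched on both strands were the cAMP response element (TGACGTCA), the AP-1 site (TGACTCA), the ETS site (CCGGAAG), the TATA box (TATAAA), the NF-kB site and the SRF CArG box. The windows ran from 250 bases before to 50 bases after the start, and 9 of the 10 genes had one. Dusp4 had no entry. The cAMP response element, bound by CREB and ATF factors, was in the windows of Dusp1 and Dusp8, and in 1.79% of 32851 windows of all genes. The SRF CArG box, bound by serum response factor, was in that of Dusp5, and in 1.63% of all windows. None of the 9 windows held the AP-1 site (5.20% of all windows), the ETS site (8.86%), the TATA box (13.6%) or the NF-kB site (8.46%). Dusp2 and Dusp16 thus held no match of the 6 motifs. The windows were rich in G and C, at 57.3% to 78.7% with a median of 68.7%, where the median of all windows was 52.7%. A match is a description of letters and not a bound site. For Dusp7, Dusp8, Dusp14 and Dusp16 the RefSeq gene record extends further upstream than the start used here, so other starts of these genes were not searched.

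The matches in Dusp8 and Dusp5 are shown with 20 bases on either side, to set their spacing beside that of Dusp1. Dusp8 had its matches 107 and 63 bases before the start (chr7:142095320-142095411, minus strand), and Dusp1 had its match 143 bases before the start. Dusp5 had 2 adjacent CArG boxes, 82 and 72 bases before the start, which did not overlap each other (chr19:53529043-53529102, plus strand). The capitals mark the matches.
Dusp8: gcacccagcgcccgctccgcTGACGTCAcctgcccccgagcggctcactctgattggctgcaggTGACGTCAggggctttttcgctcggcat
Dusp5: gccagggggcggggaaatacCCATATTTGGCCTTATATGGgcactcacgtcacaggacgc

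Dusp1 lies on chromosome 17 (chr17:26505591-26508472). It was measured at 99.3, 82.5 and 10.3 CPM in LPS- tlr4f/f and at 335.6, 849 and 674 CPM in LPS- tlr4f/f-lysM-cre. In LPS+ tlr4f/f it was at 45.9, 44.1 and 39.6 CPM, and in LPS+ tlr4f/f-lysM-cre at 113.8, 91.0 and 98.1 CPM. Replicate 3 of LPS- tlr4f/f was far below the other libraries of its group, and the 3 libraries of LPS- tlr4f/f-lysM-cre lay above all others. Dusp1 was 2.35-fold higher in LPS+ tlr4f/f-lysM-cre than in LPS+ tlr4f/f (log2 1.23, SE 0.085, edgeR adjusted p = 3.14e-07), and 6.07-fold lower there than in LPS- tlr4f/f-lysM-cre (edgeR adjusted p = 0.00377). Between the LPS- groups it differed 9.56-fold (log2 3.26, SE 0.84), with an edgeR adjusted p of 0.0254 that missed the criterion of 0.01. Without replicate 3 of LPS- tlr4f/f that p was 0.0096, and the log2 difference was 2.74.

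Dusp2 (PAC-1, chr2:127336159-127338377) had the widest range. It was at 3.41, 3.16 and 0.431 CPM in LPS- tlr4f/f, the last being 23 counts, and at 4.69, 4.28 and 4.04 CPM in LPS+ tlr4f/f. It was at 137.5, 234 and 134.1 CPM in LPS- tlr4f/f-lysM-cre and at 28.4, 27.7 and 17.2 CPM in LPS+ tlr4f/f-lysM-cre. No library of either tlr4f/f heading reached any library of the tlr4f/f-lysM-cre headings. The LPS- groups differed 71.1-fold (log2 6.15, SE 0.82, edgeR adjusted p = 0.00274) and the LPS+ groups 5.66-fold (log2 2.50, SE 0.20, edgeR adjusted p = 1.22e-05). Within tlr4f/f-lysM-cre, Dusp2 was 6.81-fold lower in LPS+ (edgeR adjusted p = 0.00228). The difference of the LPS- groups passed the criterion with 4 of the 6 libraries left out in turn, and had an adjusted p of 0.0136 without replicate 2 of LPS- tlr4f/f and of 0.0105 without replicate 2 of LPS- tlr4f/f-lysM-cre. With no filter on low counts it was 0.0138.

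Dusp16 (MKP-7, chr6:134715468-134807063) was the most evenly measured of the 3. Its levels were 15.9, 21.7 and 18.5 CPM in LPS- tlr4f/f, 16.3, 16.2 and 14.5 CPM in LPS+ tlr4f/f, 335.8, 279 and 283 CPM in LPS- tlr4f/f-lysM-cre and 93.6, 99.4 and 82.1 CPM in LPS+ tlr4f/f-lysM-cre. The tlr4f/f groups overlapped, and each of the other groups was separate from all others. Dusp16 was 15.9-fold higher in LPS- tlr4f/f-lysM-cre than in LPS- tlr4f/f (log2 3.99, SE 0.20, edgeR adjusted p = 0.000393), which held with each of the 6 libraries left out. It was 5.90-fold higher in LPS+ tlr4f/f-lysM-cre than in LPS+ tlr4f/f (log2 2.56, SE 0.081, edgeR adjusted p = 7.06e-11) and 3.24-fold lower in LPS+ than in LPS- tlr4f/f-lysM-cre (edgeR adjusted p = 0.00113). Its shorter transcript held 73.9% to 82.7% of the counts of the longer in every library. The annotation places the long non-coding RNAs Gm36328 and 1700055D16Rik across this gene, and the counting was not stated to use strand, so reads of these cannot be told apart from its own where they overlap.

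Dusp4 and Dusp5 are the other inducible nuclear enzymes. Dusp4 (MKP-2, chr8:34807610-34819894) was at 114.6 to 156.3 CPM in LPS- tlr4f/f, 72.1 to 165.1 CPM in LPS- tlr4f/f-lysM-cre, 97.1 to 122.7 CPM in LPS+ tlr4f/f and 103.2 to 124.5 CPM in LPS+ tlr4f/f-lysM-cre. All 4 groups overlapped. Its difference between the LPS+ groups was a log2 of 0.00, with a 95% confidence interval from -0.23 to 0.24, and that between the LPS- groups was -0.32, with an interval from -1.15 to 0.51.

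Dusp5 (chr19:53529145-53541809), which acts on ERK in the nucleus, was at 16.9, 6.18 and 0.843 CPM in LPS- tlr4f/f and at 43.1, 6.67 and 13.1 CPM in LPS- tlr4f/f-lysM-cre. In LPS+ tlr4f/f it was at 7.62, 6.70 and 7.56 CPM, and in LPS+ tlr4f/f-lysM-cre at 3.82, 3.67 and 4.31 CPM. The LPS+ groups did not overlap. Dusp5 was 1.84-fold lower in LPS+ tlr4f/f-lysM-cre than in LPS+ tlr4f/f, which passed an adjusted p of 0.05 and not the fold criterion of 2 (log2 -0.88, SE 0.13, edgeR adjusted p = 7.51e-05). With each library left out, the edgeR adjusted p was at most 0.000741. Over the alternative tests and settings that left no library out, the adjusted p reached 0.479, with a log2 between -0.90 and -0.87. In the LPS- groups Dusp5 had its highest levels in replicate 1 of tlr4f/f and in replicates 1 and 3 of tlr4f/f-lysM-cre, the 3 libraries with the highest stromal markers. The part of stromal cells in these levels was not tested, and in bulk RNA fewer cells of a type and less RNA per cell cannot be told apart. Dusp5 was 5.31-fold lower in LPS+ than in LPS- tlr4f/f-lysM-cre (edgeR adjusted p = 0.0383). The log2 difference was -2.41 with replicate 1 of LPS- tlr4f/f-lysM-cre and -1.34 without it, and without any 1 of the LPS+ tlr4f/f-lysM-cre libraries the adjusted p was 0.122 to 0.13.

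The cytoplasmic ERK phosphatases had levels of the same order as Dusp4. Dusp6 (MKP-3, chr10:99263231-99267489), an ERK feedback gene, was at 127.9, 89.1 and 49.6 CPM in LPS- tlr4f/f and 53.3, 15.8 and 61.8 CPM in LPS- tlr4f/f-lysM-cre. It was at 53.6 to 63.2 CPM in LPS+ tlr4f/f and 45.6 to 61.9 CPM in LPS+ tlr4f/f-lysM-cre. All 4 groups overlapped, and in the main test no comparison of Dusp6 reached an adjusted p of 0.05. With a library left out, the lowest edgeR adjusted p was 0.00254 between the LPS+ groups and 0.0292 between LPS+ and LPS- tlr4f/f. Over the other alternative tests and settings the adjusted p between the LPS+ groups was as low as 0.0206. The log2 between the LPS+ groups lay between -0.32 and -0.083 with each library left out. The difference of Dusp6 between the LPS- groups had a log2 of -1.03 with an interval from -2.40 to 0.34. The long non-coding RNA Gm34921 overlaps Dusp6 in the annotation.

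Dusp7 (MKP-X, chr9:106368560-106375724) was at 130.8, 129.7 and 88.4 CPM in LPS- tlr4f/f, 73.8, 71.8 and 60.8 CPM in LPS- tlr4f/f-lysM-cre, 74.9, 68.8 and 77.0 CPM in LPS+ tlr4f/f and 42.2, 38.7 and 40.6 CPM in LPS+ tlr4f/f-lysM-cre. LPS+ tlr4f/f-lysM-cre was below and LPS- tlr4f/f above every library of the other groups. These 2 groups, with means of 40.5 and 116.3 CPM, were not compared directly. In the pairwise comparisons tested the fold stayed under 2. Dusp7 was 1.80-fold lower in LPS+ tlr4f/f-lysM-cre than in LPS+ tlr4f/f (SE of the log2 0.060, edgeR adjusted p = 9.57e-08), 1.68-fold lower than in LPS- tlr4f/f-lysM-cre (edgeR adjusted p = 0.00533), and 1.70-fold lower in LPS- tlr4f/f-lysM-cre than in LPS- tlr4f/f (edgeR adjusted p = 0.0237).

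Among the enzymes that act on JNK and p38, Dusp8 and Dusp10 were far below Dusp16 in the tlr4f/f-lysM-cre groups. Dusp10 (MKP-5, chr1:184034381-184075636) was at 2.13, 2.90 and 2.61 CPM in LPS- tlr4f/f, 1.64, 3.61 and 2.99 CPM in LPS- tlr4f/f-lysM-cre, 1.87, 2.48 and 2.01 CPM in LPS+ tlr4f/f and 0.875, 0.960 and 0.774 CPM in LPS+ tlr4f/f-lysM-cre, the last from 35 to 38 counts. The first 3 of these groups overlapped. Dusp10 was 2.42-fold lower in LPS+ tlr4f/f-lysM-cre than in LPS+ tlr4f/f (log2 -1.27, SE 0.24, edgeR adjusted p = 0.000488), and this held with each of the 6 libraries left out. Its direction in that comparison was opposite to that of Dusp16. Dusp8 (chr7:142079487-142095907) was at 1.07 to 3.14 CPM in LPS- tlr4f/f, 1.84 to 7.68 CPM in LPS- tlr4f/f-lysM-cre, 1.28 to 1.96 CPM in LPS+ tlr4f/f and 1.59 to 2.47 CPM in LPS+ tlr4f/f-lysM-cre, with overlap of all groups. Its level of 7.68 CPM was in replicate 1 of LPS- tlr4f/f-lysM-cre, and without that library the sign of its difference between the LPS- groups turned. The long non-coding RNA Gm32786 overlaps Dusp8 in the annotation.

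Dusp14 (MKP-6, chr11:84048033-84069256) was close to undetected. It had 11, 1 and 1 counts in LPS- tlr4f/f, 14, 2 and 10 in LPS- tlr4f/f-lysM-cre, 0, 0 and 1 in LPS+ tlr4f/f and 0, 0 and 1 in LPS+ tlr4f/f-lysM-cre. The libraries with 10 or more counts were the same 3 that had the highest stromal markers, and the part of stromal cells was not tested. Dusp14 differed between the LPS- groups by a log2 of 1.71 with an interval from -1.0 to 4.43.

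**Figure D2:**
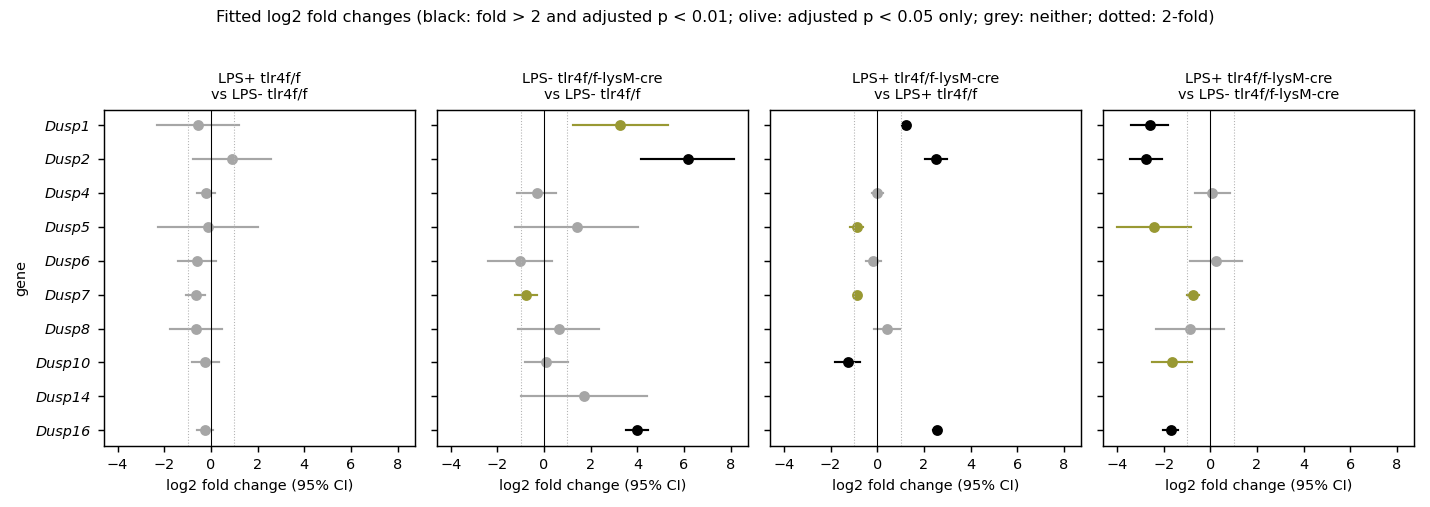
Fitted log2 fold change (x axis, points) with its 95% confidence interval (lines) for each gene in the 4 pairwise comparisons, black for a fold above 2 with adjusted p below 0.01, olive for adjusted p below 0.05 only, grey for neither. Dusp2 and Dusp16 are black in every comparison but the first, where all 9 genes are grey, and intervals are narrowest between the LPS+ groups.

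DEGs had to differ by more than 2-fold at an adjusted p under 0.01. LPS+ tlr4f/f against LPS- tlr4f/f asks for the effect of LPS in tlr4f/f as headed, and of the genotype without LPS if exchanged. None of the 9 genes tested was a DEG with edgeR, with DESeq2 or with limma voom. With edgeR, 0% of the 14712 genes tested were, and this share is not given for DESeq2 or limma voom. Even Lyz2, at a log2 of -10.1 (edgeR adjusted p = 0.0224), and Tlr4, at -2.02 (edgeR adjusted p = 0.0402), missed the criterion. A missing call in this comparison therefore does not show equal levels. At an adjusted p of 0.05, which 1.28% of all genes passed, none of the 9 did, and 1 (Dusp7) had an unadjusted p below 0.05. Without replicate 3 of LPS- tlr4f/f, the library with low Dusp1, Dusp2 and Dusp5, Dusp1 became a DEG (log2 -1.06, edgeR adjusted p = 0.0077). The intervals allowed a log2 difference from -2.31 to 1.19 for Dusp1, which takes in changes larger than 2-fold in either direction, and from -0.77 to 2.57 for Dusp2, which takes in an increase larger than 2-fold but no decrease of that size. For Dusp4 and Dusp16 the intervals ran from -0.60 to 0.16 and from -0.58 to 0.10.

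LPS- tlr4f/f-lysM-cre against LPS- tlr4f/f asks for the effect of the genotype without LPS as headed, and of LPS in tlr4f/f if exchanged. Of the 10 genes tested, Dusp2 and Dusp16 were higher DEGs, where 9.26% of all genes tested were, and none was a lower DEG, where 7.81% were. At an adjusted p of 0.05, passed by 37.3% of all genes, 4 of the 10 passed, with Dusp1 added as higher and Dusp7 as lower. The median log2 fold change of the 10 genes was 1.01 and that of all genes was -0.08.

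LPS+ tlr4f/f-lysM-cre against LPS+ tlr4f/f asks for the effect of the genotype with LPS as headed, and of LPS in tlr4f/f-lysM-cre if exchanged. Of the 9 genes tested, Dusp1, Dusp2 and Dusp16 were higher DEGs (10.8% of all genes) and Dusp10 was a lower DEG (10.9% of all genes). All 4 remained DEGs with each of the 6 libraries left out. In a joint fit of all 12 libraries Dusp1 was not a DEG (edgeR adjusted p = 0.162). At an adjusted p of 0.05, passed by 61.4% of all genes, 6 of the 9 passed, with Dusp5 and Dusp7 added as lower. The median log2 fold change of the 9 genes was 0.00 and that of all genes was -0.02.

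LPS+ tlr4f/f-lysM-cre against LPS- tlr4f/f-lysM-cre asks for the effect of LPS in tlr4f/f-lysM-cre as headed, and of the genotype with LPS if exchanged. Dusp1, Dusp2 and Dusp16 were lower DEGs of the 9 tested, where 3.66% of all genes were lower, and none was a higher DEG, where 2.42% were. All 3 lost the call without any 1 of the LPS+ tlr4f/f-lysM-cre libraries, at adjusted p values of up to 0.0324 for Dusp1, 0.0209 for Dusp2 and 0.0161 for Dusp16. Dusp1 also lost it in a joint fit of the 12 libraries (edgeR adjusted p = 0.0129). At an adjusted p of 0.05, passed by 26.7% of all genes, 6 of the 9 passed and all 6 were lower, with Dusp5, Dusp7 and Dusp10 added. The median log2 fold change of the 9 genes was -1.64 and that of all genes was 0.03.

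The interaction of genotype and LPS asks whether the LPS+ minus LPS- difference was the same for both genotypes. Its value does not depend on which reading of the headings is taken. As headed, Dusp16 fell with LPS in tlr4f/f-lysM-cre and differed little in tlr4f/f. If exchanged, it was higher with LPS in both genotypes, and by less in tlr4f/f-lysM-cre. The interaction was a log2 of -1.45 for Dusp16 (SE 0.19, edgeR adjusted p = 0.00364), the only DEG of the 10 genes tested, where 0.405% of all genes were lower and 0.589% higher. For Dusp2 it was -3.67 (SE 0.76, edgeR adjusted p = 0.0198), and 6.99% of all genes passed an adjusted p of 0.05. The call of Dusp16 was lost without any 1 of the LPS+ libraries of either genotype, with an adjusted p of up to 0.0194. For Dusp1 the interaction was -2.05, with an interval from -3.96 to -0.14 and an edgeR adjusted p of 0.182.

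Per length of transcript, the 10 genes summed to 169 ± 60.6 CPM per kb (SD, n = 3) in LPS- tlr4f/f, 582 ± 115 in LPS- tlr4f/f-lysM-cre, 125 ± 8.06 in LPS+ tlr4f/f and 166 ± 5.58 in LPS+ tlr4f/f-lysM-cre. The sums of both LPS+ groups lay within the range of LPS- tlr4f/f. By the classes named above, the inducible nuclear genes gave 55.7% of the sum in LPS- tlr4f/f and 82.5% in LPS- tlr4f/f-lysM-cre. They gave 61.8% in LPS+ tlr4f/f and 70.1% in LPS+ tlr4f/f-lysM-cre. In the same order, Dusp6 and Dusp7 gave 40.9%, 6.68%, 34.9% and 18.6%. Dusp8, Dusp10 and Dusp16 gave 3.33%, 10.8%, 3.34% and 11.3%. The genes were then divided by their pattern, a division made after their values were seen. Dusp1, Dusp2 and Dusp16 gave 20.4 ± 10.1% of it in LPS- tlr4f/f, 81.3 ± 11.6% in LPS- tlr4f/f-lysM-cre, 22.4 ± 2.27% in LPS+ tlr4f/f and 51.1 ± 4.69% in LPS+ tlr4f/f-lysM-cre. The 3 lowest shares of Dusp1, Dusp2 and Dusp16 in the tlr4f/f-lysM-cre groups, 46.0%, 52.1% and 55.3%, were each above the highest in the tlr4f/f groups, 27.2%. Since this set was made from these values, the separation was built in and is a description only. Dusp4, Dusp6 and Dusp7 gave 75.2% in LPS- tlr4f/f, 71.6% in LPS+ tlr4f/f, 46.3% in LPS+ tlr4f/f-lysM-cre and 14.8% in LPS- tlr4f/f-lysM-cre.

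**Figure D3:**
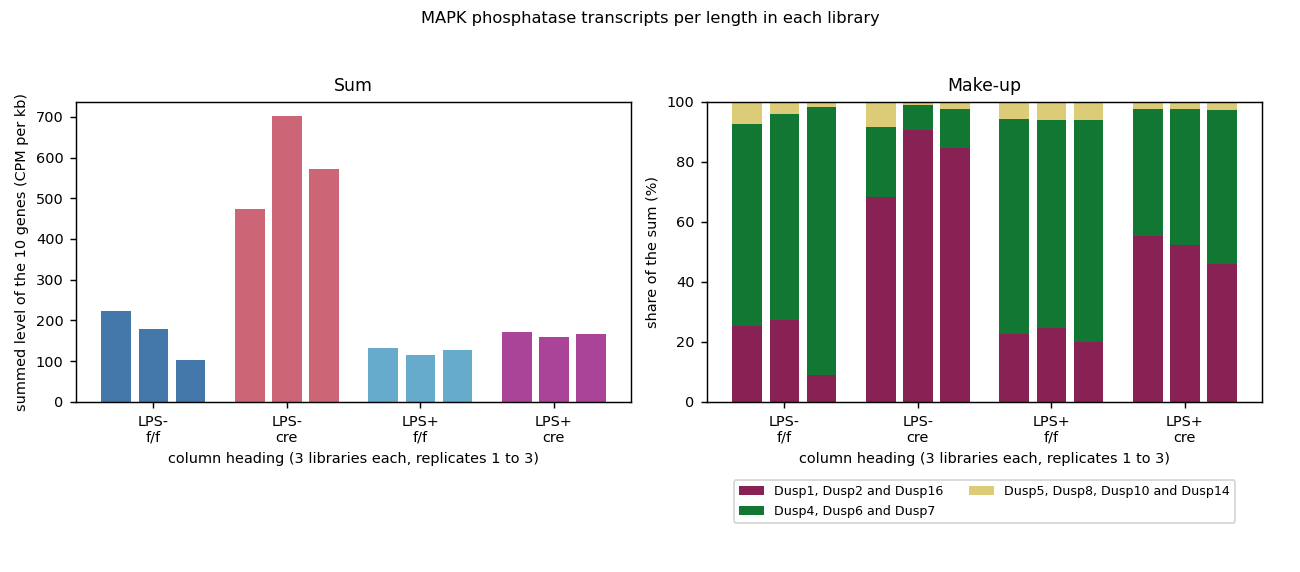
Left, summed level of the 10 genes per length (CPM per kb, bars from 0) in each of 12 libraries. Right, percent of that sum from 3 sets of genes, which were divided after their values were seen. The sums of LPS+ tlr4f/f-lysM-cre, 160 to 171 CPM per kb, lie within those of LPS- tlr4f/f, 104 to 223, while the share of Dusp1, Dusp2 and Dusp16 is 46.0% or more in the first and 27.2% or less in the second.

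The order of the genes per length changed with the group. In LPS- tlr4f/f, Dusp4 had the highest mean at 54.3 ± 9.0 CPM per kb (SD, n = 3), followed by Dusp7 at 36.2 ± 7.52, Dusp1 at 33.0 ± 24.4 and Dusp6 at 31.8 ± 14.0, of which the last 3 did not differ beyond their spread. Dusp1 overlapped Dusp4 too, with a highest library of 51.2 against a lowest of 47.2 CPM per kb. Dusp5 at 6.90 ± 7.07 and Dusp16 at 3.66 ± 0.570 came next, also within their spread. In LPS+ tlr4f/f the first 6 ranks were the same, with Dusp4 at 46.2 ± 5.51 and with Dusp7, Dusp1 and Dusp6 between 20.7 and 22.9, again within their spread. In LPS- tlr4f/f-lysM-cre, Dusp1 at 319 ± 134.4, Dusp2 at 104.2 ± 35.1 and Dusp16 at 58.5 ± 6.22 CPM per kb led, and Dusp4 at 43.6 ± 21.2 overlapped Dusp16. In LPS+ tlr4f/f-lysM-cre, Dusp1 at 52.0 ± 6.01 and Dusp4 at 46.0 ± 4.67 overlapped at the top. There Dusp6 at 18.4 ± 3.27, Dusp16 at 17.9 ± 1.72 and Dusp2 at 15.1 ± 3.87 followed within their spread. Dusp8, Dusp10 and Dusp14 held the last 3 ranks in every group, with Dusp14 the last.

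The other genes of the MAP kinase pathways were described by lists chosen by function, and since the comparisons share groups, each is given by its own counts. Of all genes tested, 9.26% were higher and 7.81% lower DEGs between the LPS- groups. Between the LPS+ groups these shares were 10.8% and 10.9%. They hold for every list below, and a list with a count near them is not set apart from all genes. The ERK cascade list of 9 kinases had 3 higher DEGs in LPS- tlr4f/f-lysM-cre against LPS- tlr4f/f, Map3k8, Braf and Map2k1, and 2 in LPS+ tlr4f/f-lysM-cre against LPS+ tlr4f/f, Map3k8 and Ksr1, with no lower DEG in either. Map3k8, the kinase that feeds TLR4 signals into the ERK cascade, was at 98.2 to 140.3 CPM in LPS- tlr4f/f-lysM-cre and 59.3 to 60.4 CPM in LPS+ tlr4f/f-lysM-cre, against 9.98 to 14.1 CPM in the 6 libraries headed tlr4f/f. Of 4 JNK cascade kinases tested, Map2k4 was a higher DEG between the LPS- groups (log2 1.27, SE 0.21, edgeR adjusted p = 0.00508), and none was between the LPS+ groups.

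Of 7 p38 cascade kinases tested, Mapkapk2, the p38-activated kinase that stabilises cytokine mRNA, was a higher DEG between the LPS- groups (log2 2.84, SE 0.34, edgeR adjusted p = 0.00182) and between the LPS+ groups (log2 2.57, SE 0.062, edgeR adjusted p = 6.74e-12). Map2k6, which activates p38, was a lower DEG between the LPS+ groups. It had low levels, at 0.111 to 0.329 CPM in LPS+ tlr4f/f-lysM-cre and 2.31 to 3.92 CPM in LPS+ tlr4f/f. Mapk14, p38α itself, was at 87.0 to 114.9 CPM in LPS- tlr4f/f-lysM-cre and at 264 to 275 CPM in LPS+ tlr4f/f-lysM-cre, a higher DEG there (log2 1.44, SE 0.14, edgeR adjusted p = 0.0016). Its interaction of genotype and LPS was a log2 of 1.59 (edgeR adjusted p = 0.00246), of opposite sign to that of Dusp16. Of 10 tested kinases and adaptors upstream of JNK and p38, Tab2 was a higher DEG between the LPS- and between the LPS+ groups, Map3k4 and Tab1 were lower between the LPS- groups, and Map3k1 was lower between the LPS+ groups.

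Of the dual-specificity phosphatases outside the set, Dusp9 (MKP-4), the remaining cytoplasmic ERK phosphatase, was a lower DEG between the LPS- groups (log2 -3.33, SE 0.46, edgeR adjusted p = 0.00274) and between the LPS+ groups (log2 -2.03, SE 0.19, edgeR adjusted p = 1.32e-06), at 3.08 to 4.54 CPM in the 6 libraries headed tlr4f/f and less than 1.1 CPM in the 6 others. Of 10 atypical dual-specificity phosphatases tested, which lack the MAP kinase-binding domain, Dusp28 was higher and Dusp3 and Dusp18 were lower DEGs between the LPS- groups, and Dusp13 and Dusp18 were lower between the LPS+ groups. Dusp13 had low levels, at 0.207 to 0.439 CPM in LPS+ tlr4f/f-lysM-cre and 1.16 to 1.56 CPM in LPS+ tlr4f/f. Dusp28, like Dusp2 and Dusp16, was higher in the tlr4f/f-lysM-cre groups, with 14.0 to 25.2 CPM in LPS-, 11.4 to 13.7 CPM in LPS+ and 6.11 to 8.47 CPM in the 6 libraries headed tlr4f/f. Its log2 difference was 1.43 between the LPS- groups (edgeR adjusted p = 0.0067) and 0.92 between the LPS+ groups (edgeR adjusted p = 1.39e-05), the second below the fold criterion.

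Genes that MAP kinases switch on varied. Of 10 tested ERK feedback genes, Spred1 was higher and Spred2 and Etv5 were lower between the LPS- groups, and Spry1 and Phlda1 were higher and Spred3 and Etv5 lower between the LPS+ groups, where 8 were tested. Spry1 had low levels, at 0.398 to 1.12 CPM in LPS+ tlr4f/f-lysM-cre and 0.0258 to 0.168 CPM in LPS+ tlr4f/f. Of 14 immediate-early and AP-1 genes, Fosl2, Junb and Ier2 were higher between the LPS- groups, and Junb, Ier2 and Atf3 were higher and Fosb lower between the LPS+ groups. Fosb was close to undetected, at 0.0221 to 0.0274 CPM in LPS+ tlr4f/f-lysM-cre and 0.382 to 0.619 CPM in LPS+ tlr4f/f. Of 10 inflammatory transcripts whose production or stability depends on MAP kinases, 9 were higher DEGs between the LPS- groups and all 10 between the LPS+ groups. Their median log2 fold changes were 7.57 and 6.74, where the members had 1.01 and 0.00. Zfp36, which encodes the mRNA decay factor tristetraprolin, and Ier3 were among the DEGs of both. Il1b was too, but its levels were used above to doubt the headings, so its calls were known beforehand.

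**Figure D4:**
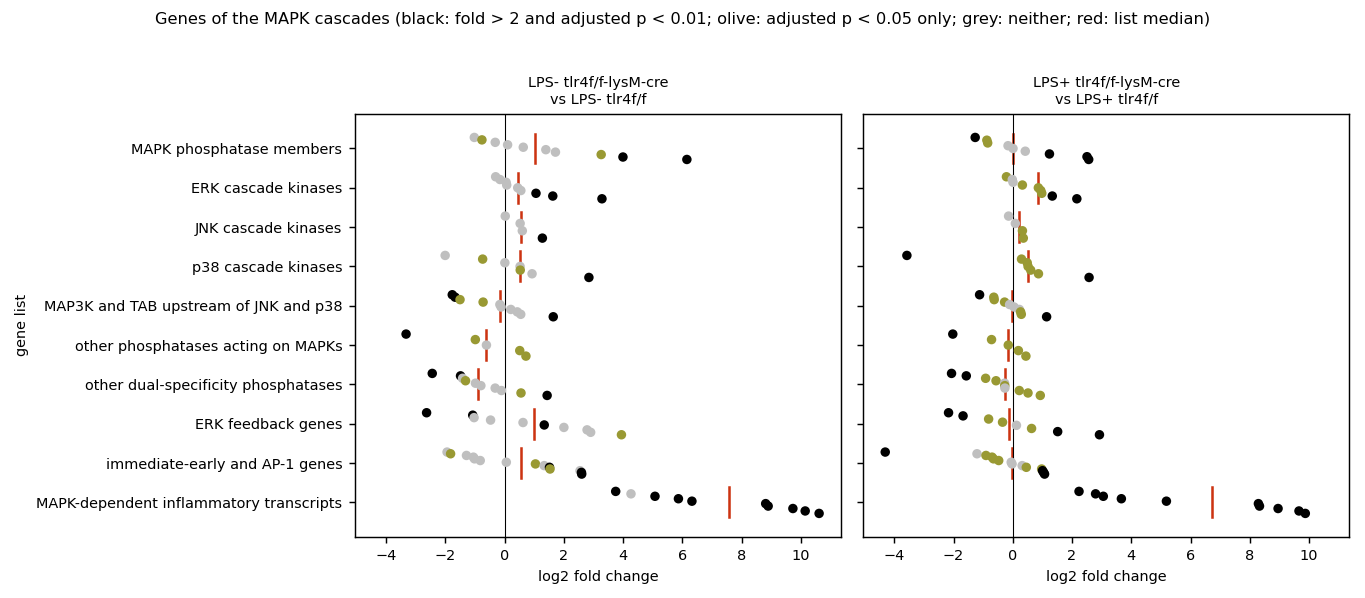
Log2 fold change (x axis, 1 point a gene) of the genes of each list tested in LPS- tlr4f/f-lysM-cre against LPS- tlr4f/f (left) and in LPS+ tlr4f/f-lysM-cre against LPS+ tlr4f/f (right), black for DEGs, olive for adjusted p below 0.05 only, grey for neither, with a red line at the list median. The inflammatory transcripts have medians of 7.57 and 6.74, and the phosphatase members range from below 0 to above 2 in both.

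The gene whose pattern over the 12 libraries was nearest to that of each member was found as the one, of 15791 genes, with the smallest root-mean-square difference of centred log2 CPM. For Dusp1 this was Timp1 (0.406), for Dusp2 Il1rn (0.567) and for Dusp16 E230013L22Rik (0.194). For Dusp4 it was Qsox2 (0.115), for Dusp7 Slc2a9 (0.138), for Dusp10 Meis3 (0.195), for Dusp8 Asns (0.370) and for Dusp5 Ryk (0.479). For Dusp6 it was Gm34921 (0.296), the gene that overlaps it. Among the members, Dusp1 and Dusp16 were nearest to each other (0.970), as were Dusp7 and Dusp10 (0.477) and Dusp4 and Dusp6 (0.508). Many other genes were nearer. By distance among the 15791 genes, Dusp16 was number 294 for Dusp1, and Dusp1 number 787 for Dusp16. Dusp10 was number 1154 for Dusp7, and Dusp7 number 103 for Dusp10. Dusp6 was number 5430 for Dusp4, and Dusp4 number 263 for Dusp6. The distance of 0.508 was larger than the deviation of Dusp4 from its own mean (0.329). Timp1, a secreted inhibitor of matrix metalloproteinases, was at 38.3 to 62.6 CPM in LPS- tlr4f/f-lysM-cre and 0.562 to 9.23 CPM in the 9 other libraries. Il1rn, the interleukin-1 receptor antagonist, was at 3606 to 4296 CPM and 472 to 586 CPM in LPS- and LPS+ tlr4f/f-lysM-cre, against 11.2 to 263 CPM elsewhere. These distances are descriptions over 12 libraries that share their group structure.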

How the data were processed

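Poly(A) RNA-seq (2 × 150 bp) was measured in 12 BMDM libraries. Per the submitters' processing notes and the paper, the authors trimmed reads with Trimmomatic 0.36, used HISAT2 to align them to mm10 and HTSeq for counting, and the deposited values are whole-number counts per transcript, not normalized. The extract protocol also names rRNA removal, and strand use in counting was not given in the sources used here. Transcripts of a gene share reads, so the transcript with the highest total was kept for each of 43453 genes. The members and lists were chosen with earlier results of these data known.

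The main test was the robust quasi-likelihood test of edgeR 4.0.16 in R 4.3.3, after filterByExpr and TMM scaling, with Benjamini-Hochberg adjustment over all genes tested. Each pairwise comparison used its 6 libraries, and the interaction used all 12. A DEG differed by more than 2-fold at an adjusted p under 0.01, as the paper defines it for DESeq. CPM used TMM-scaled library sizes over all 12 libraries. The order of the members and their shares of the sum used CPM per kb of transcript. Other remarks on the levels of different genes, and the sums of markers, are in CPM without regard to length. The test was first tried on simulated counts. Reads carried no molecular identifiers and may be copies of 1 molecule, and intervals cover the spread between libraries only. Groups were taken from the sample titles, and replicate numbers were not treated as pairs. Alternatives were DESeq2 1.42.0, limma 3.58.1 voom with quality weights for samples, no filter, RLE factors, a minimum of 10 counts per library, a joint fit of the 12 libraries, a replicate block, an adjusted p below 0.05 alone, the sum of transcripts and each library left out.

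Named genes were all 10 members, Tlr4, Lyz2 and Il1b, and for each list and comparison the most changed DEG each way, provided that the libraries of its higher group all had 10 or more counts. The other list genes and the nearest-pattern genes whose levels are given were named after their values were seen. The coordinates and promoter windows are from RefSeq (GRCm38.p6, the patch level of mm10).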

Additional observations from a re-analysis of the deposited data

Results flagged for a closer look

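The response of 2 of the 10 members to LPS differed between the genotypes by a test of the difference itself. This was at an adjusted p of 0.05, which 6.99% of all genes passed. For Dusp16 the interaction was a log2 of -1.45 (edgeR adjusted p = 0.00364), a DEG, where 0.405% of all genes were lower and 0.589% higher DEGs. For Dusp2 it was -3.67 (edgeR adjusted p = 0.0198, past 0.05 and not past the criterion of 0.01). With each of the 12 libraries left out, Dusp16 was a DEG in 6 fits and Dusp2 in 1. The edgeR adjusted p then reached 0.0194 for Dusp16 and 0.0668 for Dusp2. As headed, the LPS+ minus LPS- difference of Dusp16 was a log2 of -1.69 with Cre and -0.24 without. If the headings are exchanged, it was 2.56 with Cre and 3.99 without. Groups of 3 libraries were too small for a test of single outlying libraries.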

How the results depend on the processing

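Of the alternative counts of member DEGs, 61 stayed within 1.5 times the count reported and 19 did not. Of the alternative values of single members, 693 kept their direction and their side of the criteria, 18 gained the call, 21 lost it and 21 changed sign. Between the LPS- groups the count of 2 became 1 with no filter and 4 with an adjusted p below 0.05 alone, and lay between 1 and 3 with each library left out. Between LPS+ and LPS- tlr4f/f it was 0 or 1 with each library left out, being 1 without replicate 3 of LPS- tlr4f/f. Between LPS+ and LPS- tlr4f/f-lysM-cre the count of 3 became 5 with DESeq2 and 6 with an adjusted p below 0.05 alone, and lay between 0 and 4 with each library left out, being 0 without any 1 of the LPS+ libraries. For the interaction the count of 1 became 2 with DESeq2 and 2 with an adjusted p below 0.05 alone, and lay between 0 and 2 with each library left out, being 0 without any 1 of the LPS+ libraries of either genotype. At an adjusted p below 0.05 alone, 37.3% of all genes passed between the LPS- groups. Between LPS+ and LPS- tlr4f/f-lysM-cre 26.7% passed, and for the interaction 6.99%. For DESeq2, no filter and the libraries left out, the share of all genes is not given beside these counts. The moves of the counts are therefore not a result about the members. Leaving out a library leaves fewer samples, and otherwise the cause of these moves was not tested.

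The values that changed sign were of members that were not called. With limma voom these were Dusp5 at a log2 of 0.060 between LPS+ and LPS- tlr4f/f, Dusp10 at -0.084 between the LPS- groups, Dusp4 at -0.018 between the LPS+ groups and Dusp8 at 0.099 for the interaction. Dusp4 between the LPS+ groups was at -0.012 with no filter and -0.0053 in a joint fit of the 12 libraries. With each library left out, Dusp5 between LPS+ and LPS- tlr4f/f lay between -0.65 and 1.07. Between the LPS- groups Dusp8 lay between -0.39 and 0.97 and Dusp10 between -0.14 and 0.39, and between the LPS+ groups Dusp4 lay between -0.082 and 0.065. Between LPS+ and LPS- tlr4f/f-lysM-cre, Dusp4 lay between -0.13 and 0.54, Dusp6 between -0.16 and 0.57 and Dusp8 between -1.21 and 0.15. For the interaction, Dusp7 lay between -0.18 and 0.083, Dusp8 between -0.55 and 0.82 and Dusp14 between -3.49 and 0.22.

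Libraries of different groups with the same replicate number did not deviate together in every case, with correlations from -0.037 to 0.472 over 15792 genes. Those with different numbers ran from -0.490 to 0.203. Between the LPS- groups the correlation was 0.472 for replicates 1, 0.340 for replicates 2 and 0.0138 for replicates 3. The numbers were not taken as pairs, and whether replicates of the LPS- groups had a shared origin was not tested. With the replicate number as a replicate block, the member DEGs were 0 between LPS+ and LPS- tlr4f/f, 2 between the LPS- groups, 4 between the LPS+ groups, 2 between LPS+ and LPS- tlr4f/f-lysM-cre and 1 for the interaction. Dusp1 lost its call in the fourth of these (edgeR adjusted p = 0.0166), Dusp5 between LPS+ and LPS- tlr4f/f changed sign to 0.58, and all DEGs between LPS+ and LPS- tlr4f/f-lysM-cre went from 867 to 212. For the other comparisons the share of all genes called with the block is not given. The member DEGs with the block are therefore not a result about the members. Counts limit Dusp14, with at most 14 in a library, and Dusp10 and Dusp8, with as few as 35 and 55.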
